A study of Mus musculus with 58 samples.

Results

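The 4 libraries described here, of 58 in the series, were chromatin-associated RNA (ChrRNA-seq) from mouse embryonic stem cells (mESCs) in which PCGF3 and PCGF5 carried a degradation tag, taken at day 0, before any doxycycline was given. They were chosen by their titles: 2 cultures treated with dTAG-13 (replicates 1 and 2) and 2 untreated control cultures with the same replicate numbers. All 4 came from 1 engineered line, a female hybrid of a 129S (Dom) and a castaneus (Cast) genome. In this line the promoter of Xist on the Dom X chromosome was exchanged for one that doxycycline switches on, and the FKBP12 F36V tag was inserted at both alleles of Pcgf3 and Pcgf5. The controls thus carried the tags and the inducible Xist as well. By the labels they differed from the treated cultures in dTAG-13 alone, a small molecule that directs tagged proteins to the proteasome. The labels of the treated cultures give dTAG-13 at 100 uM, from 12 h ahead of doxycycline. That concentration is printed as the labels write it and could not be checked here. Since day 0 had no doxycycline, the length of exposure in this line is not known from the labels. Day 1 libraries of the same line, given doxycycline, entered the main fit as well. Uninduced libraries of tagged clones with a mutation in the SPOC domain of SPEN, a silencing factor of Xist, were used for comparison. The names of the treated libraries of these mutant clones contain 36 h. Other uninduced clones with the SPOC mutation but without the tags served to select X-linked genes. The cells had been kept on mitomycin-treated mouse fibroblast feeders, which were removed by pre-plating. Nothing in the labels says that the replicates came from separate derivations, so p-values measure the spread between these cultures only.

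PCGF3 and PCGF5 are alternative subunits of a variant form of Polycomb repressive complex 1 (PRC1), the machinery that adds ubiquitin to histone H2A (the mark H2AK119ub1) through RING1A or RING1B. Each variant complex is defined by its PCGF subunit and holds RYBP or YAF2, and the ubiquitin mark in turn attracts PRC2, which methylates histone H3 at H3K27. PCGF3/5-PRC1 is known for spreading the mark broadly over chromatin and for being brought to Xist RNA by the adaptor HNRNPK. Without doxycycline the inducible Xist has not been switched on, so the day 0 comparison asks what the loss of the 2 proteins does to transcription across the genome before X inactivation begins.

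The deposited counts covered 22556 genes, and each library held between 16121141 and 22202162 counted fragments, of which 44.7 to 48.5% could be assigned to an allele. Of these genes, 15366 had enough counts to be tested. Levels are given as counts per 1000000 counted fragments (CPM), and a fold change is the log2 difference of dTAG over control with its standard error (SE). The main test was edgeR's quasi-likelihood test with replicate number as a block, fitted on the 8 ES libraries of this line (day 0 and day 1), and a gene was called where its Benjamini-Hochberg adjusted p was under 0.05. The ES cell markers were present in all 4 libraries. Zfp42 lay between 722 and 1150 CPM, Esrrb between 497 and 534 CPM and Pou5f1 between 41.4 and 75.5 CPM, while Sox2 was listed at 0 in every library and could not be read by this counting.

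No gene was called: 0 of 15366 (0%). The smallest adjusted p was 0.62. At an unadjusted p under 0.05 there were 1115 genes, 482 higher (3.14%) and 633 lower (4.12%) with dTAG-13. DESeq2, run on the same libraries, called 2 genes, Xist and Tnc. The groups did not overlap in CPM, every treated library lying on the same side of both controls, for 1981 genes that were higher (12.9%) and 1856 that were lower (12.1%). The median fold change over all tested genes was -0.0027. The precision was enough to bound most genes. The 95% confidence interval lay within 1 log2 unit (2-fold) of no change for 11726 genes (76.3%), and for 8688 (94.1%) of the 9231 genes with a mean of at least 10 CPM, where the median SE was 0.131. At the opposite end the interval lay wholly beyond 2-fold for 5 genes that were higher (Col1a1, Col3a1, Col6a3, Tnc and Bank1) and 3 that were lower (Egr2, Cd79a and D130009I18Rik), a set named after their values were seen.

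The replicate 2 pair differed by more than the replicate 1 pair. Among the genes with at least 10 CPM, the standard deviation of the log2 difference between treated and control culture was 0.165 in replicate 1 and 0.444 in replicate 2. The difference reached 2-fold for 2 genes in replicate 1, 5730408K05Rik and Trmt10c, and for 285 genes in replicate 2. The 2 pairs had the same sign for 54.4% of these genes, with a correlation across genes of 0.195 (Pearson, 9231 genes, which are not independent replicates). Between the replicates of 1 group, over all tested genes, the standard deviation was 0.520 in the controls and 0.576 in the treated cultures. When the treated library of replicate 1 was left out, so that replicate 2 alone stood for the treatment, 4100 genes were called, 2186 higher and 1914 lower. In that fit the lone treated library was assumed to vary like the other groups, which set the spread. When the treated library of replicate 2 was left out, 1 gene was called, Col3a1. For this reason the values of both pairs or of all 4 libraries are given for the genes on which the results turn.

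**Figure D1:**
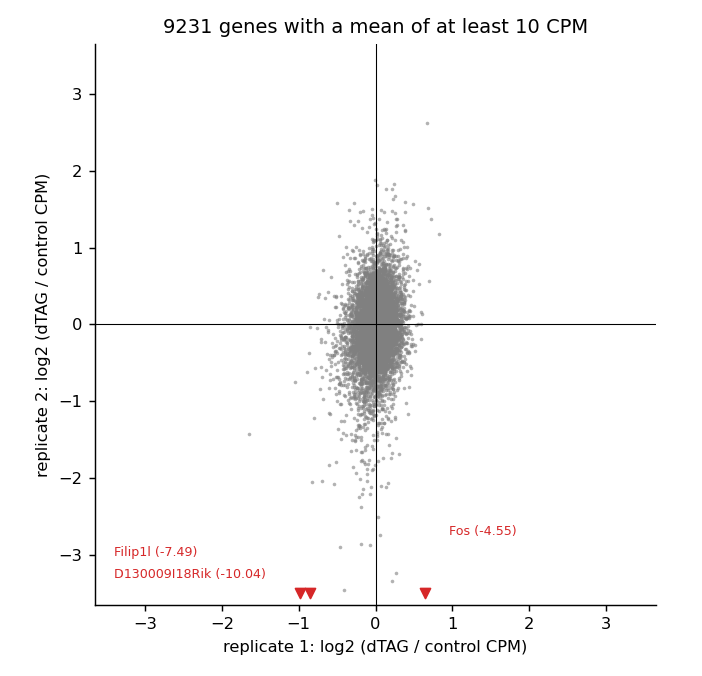
Each point is 1 of 9231 genes with a mean of at least 10 CPM; the x axis is the log2 ratio of dTAG over control CPM in replicate 1 and the y axis the same in replicate 2, on equal scales. The cloud is narrow along x (SD 0.165) and wide along y (SD 0.444), and 3 genes below the range of the plot are drawn at its edge as triangles with their replicate 2 value.

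The RNA of the targets was measured first. Pcgf3 (chr5:108461331-108503099, mm10, plus strand) stood at 92.7 and 93.9 CPM in the controls and 87.5 and 82.7 CPM in the treated cultures. Its fold change was -0.12 (SE 0.0888, 95% interval -0.33 to 0.08). Pcgf5 (chr19:36379066-36456204, plus strand) stood at 36.7 and 58.9 CPM in the controls and 40.6 and 52.0 CPM with dTAG-13, a fold change of -0.02 (SE 0.137). The treated values of Pcgf3 lay just under both controls and those of Pcgf5 lay between them. The degron acts on protein, so these values check neither the degradation nor the labels.

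Among 30 subunits of PRC1, 28 were tested and none was called; 26 had an interval within 2-fold of no change, and the median was 0.06. The catalytic subunit Rnf2 (RING1B) measured 87.8 and 96.5 CPM in the controls and 94.86 and 98.999 CPM with dTAG-13, and the groups overlapped. Rybp, the subunit shared by variant complexes, measured 373.1 and 324.7 CPM in the controls and 459.6 and 501.7 CPM in the treated cultures. Both treated values lay above both controls (fold change 0.48, SE 0.136, unadjusted p = 0.0086, adjusted p = 0.62 by edgeR). Tfdp1, the partner of E2F factors that sits in the PCGF6 complex, was the other subunit with an unadjusted p under 0.05, at 179 and 194 CPM against 207 and 273 CPM. Both are to be read against the 3.14% of all genes that reached that level in the same direction.

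The proteins that accompany PCGF3 and PCGF5 gave values of the same size. Of 11 partners, none was called and all 11 had an interval within 2-fold. Auts2, a PCGF3/5-PRC1 component linked to gene activation, measured 847 and 1091 CPM in the controls and 805 and 1437 CPM in the treated cultures, 1 below and 1 above. Hnrnpk, the RNA-binding adaptor, measured 427.1 and 420.8 CPM in the controls and 406.1 and 221.0 CPM with dTAG-13. Both treated values were lower, but replicate 1 differed by -0.07 on the log2 scale and replicate 2 by -0.93.

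Of the 11 PRC2 genes tested none was called, and all had an interval within 2-fold. Eed, the subunit that binds methylated H3K27, and Ezh1, the second methyltransferase, had unadjusted p-values under 0.05 with opposite signs (0.25 and -0.26). At that level 3.14% of all genes were higher and 4.12% lower. Jarid2, the accessory subunit that reads the H2A mark, measured 1744 and 1589 CPM in the controls and 1880 and 2613 CPM with dTAG-13 (fold change 0.44, SE 0.229, unadjusted p = 0.092). None of the 8 genes for enzymes and cofactors that remove H2AK119 ubiquitin reached an unadjusted p under 0.05, and their values ran from -0.17 for Usp21 to 0.19 for Asxl1.

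Classical Polycomb targets stayed at the floor of detection in both groups. Of 39 Hox genes, which pattern the body axis and are held silent by Polycomb in mESCs, 17 had no fragment in any of the 4 libraries and 37 were under 1 CPM in all 4. Of the 3 that could be tested, Hoxc13 was the highest, at 0.806 and 1.46 CPM in the controls and 0.787 and 0.991 CPM in the treated cultures. A count of 0 in a library still allows 3 fragments, or 0.135 to 0.186 CPM at these depths, counting error only. A gene at 0 in every library may also be one that this counting could not read, as with Sox2. The Hox sum over all members was 3.5 and 4.3 CPM in the controls and 3.8 and 3.2 CPM with dTAG-13, and the groups overlapped.

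Lineage transcription factors, which mark commitment away from pluripotency, were likewise low. Of 73 in the list, 49 were under 1 CPM in all 4 libraries and 31 were tested. None was called, and 5 of the 31 had an interval within 2-fold of no change. At an unadjusted p under 0.05 there were 3 higher and 1 lower, to be read against 3.14% and 4.12% of all genes. Meis2, a homeodomain partner of Hox proteins, measured 8.56 and 4.82 CPM in the controls and 14.1 and 12.5 CPM with dTAG-13, both treated values above both controls (fold change 1.11, SE 0.35). Wt1, a zinc finger factor of the urogenital system, measured 3.72 and 3.36 CPM against 4.66 and 8.60 CPM.

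Pluripotency genes gave no call either. Among 16 naive genes the median was -0.07, with 2 genes whose groups did not overlap, both lower, where 12.1% of all genes were lower without overlap. Klf4 measured 83.5 and 46.5 CPM in the controls and 74.8 and 23.2 CPM with dTAG-13, a value that was low in replicate 2 of both groups. Among 14 tested genes of core and formative pluripotency the median was 0.14. Dnmt3b, a de novo DNA methyltransferase induced as cells leave the naive state, measured 157.8 and 146.1 CPM in the controls and 176.0 and 299.1 CPM in the treated cultures. Both treated values were above both controls, with a log2 difference of 0.16 in replicate 1 and 1.03 in replicate 2. Germline genes, many of which are kept silent in mESCs by the related PCGF6 complex, had a median of 0.10 over 26 tested members. At an unadjusted p under 0.05 there were 1 higher (Stag3) and 1 lower (Rad51ap2), to be read against 3.14% and 4.12% of all genes. Two-cell-like genes, which mark a rare state resembling the early embryo, had a median of -0.39 in replicate 1 and 0.64 in replicate 2.

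Several lists had a larger difference in replicate 2 than in replicate 1. The 16 targets of p53, the DNA damage regulator, had a median of -0.36 in the fit, of -0.03 in replicate 1 and of -0.81 in replicate 2. Of the 16 fitted values 14 were below 0, where 50.4% of all tested genes were. The summed level of the p53 targets was 1839 and 2265 CPM in the controls and 1642 and 1321 CPM with dTAG-13. Bbc3, which encodes the death factor PUMA, measured 3.54 and 4.98 CPM against 2.42 and 1.13 CPM. Among 10 tested heat shock genes 9 had a fitted value below 0, to be read against the same 50.4% of all genes. The chaperone gene Hsp90ab1 measured 443.1 and 427.0 CPM in the controls and 373.5 and 179.5 CPM in the treated cultures. None of these lists held a called gene.

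The 30 replication-dependent histone genes, which are transcribed in S phase, were the list with the lowest median. All 30 had a fitted value below 0, with a median of -0.70, against -0.0027 for all genes, yet none reached an unadjusted p under 0.05. Their summed level was 1168 and 641 CPM in the controls and 1032 and 251 CPM with dTAG-13, so replicate 2 was the lower of each group. The medians by pair were -0.24 and -1.45. Other short RNAs, named after their values were seen, were low in the same library. Rmrp, the RNA of a ribonuclease complex, measured 20173 and 6948 CPM in the controls and 16967 and 1825 CPM with dTAG-13, and differed by -0.25 and -1.93 in the pairs. Rpph1, the RNA of ribonuclease P, differed by -0.47 and -2.90, and Terc, the telomerase RNA, by -0.82 and -2.05. In the mutant clones described below, Rmrp measured 10198 and 4106 CPM without dTAG-13 and 6226 and 3080 CPM with it. Rmrp was among the genes called lower in the clones alone. The histone sum in the clones was 637 and 332 CPM without dTAG-13 and 646 and 310 CPM with it. The part of RNA or library composition in the histone values was not tested. Early response genes downstream of ERK signalling also varied between cultures of 1 group. Fos measured 13.4 and 85.1 CPM in the controls and 21.0 and 3.60 CPM in the treated cultures, and Egr1 20.5 and 46.8 CPM against 15.5 and 4.23 CPM.

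**Figure D2:**
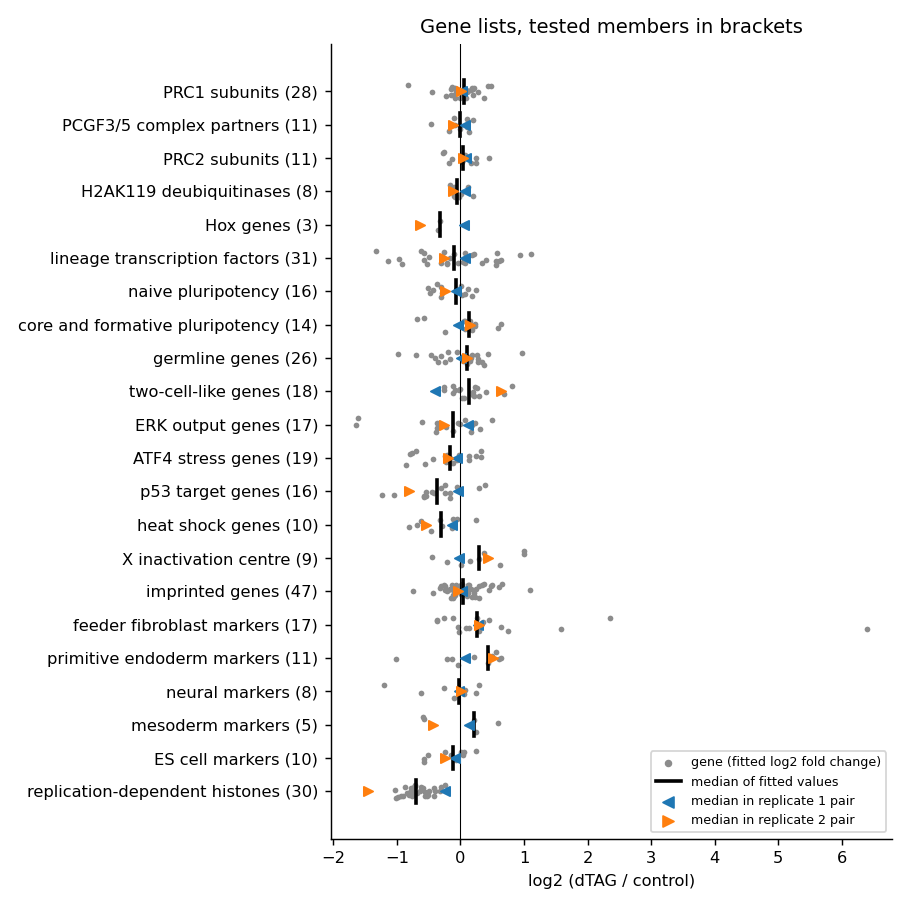
Log2 fold change of dTAG over control for the tested members of 22 gene lists, with the number of members in brackets; grey points are genes in the fit, black lines the list medians, and triangles the medians in each replicate pair. The blue triangles (replicate 1) lie near 0 for most lists, while the orange ones (replicate 2) lie at -1.45 for histones and -0.81 for p53 targets.

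The genes named next were selected by a rule: the smallest unadjusted p among genes that moved by at least 0.5 log2 units the same way in both pairs, with a mean of at least 1 CPM. Some 131 genes were eligible as higher and 166 as lower, and those described here come from the first 10 of each. None passed the threshold, and all had an adjusted p of 0.62. In the clones with a mutant SPOC domain described below, the higher genes had fold changes from -0.26 (Col3a1) to 0.60 (Oc90). Those of the lower genes described here ran from -0.41 (Unc13a) to 0.33 (Ndufa4l2) in the clones.

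Xist had the highest level among the 10 genes that were higher. It measured 75.8 and 47.3 CPM in the controls and 134.7 and 106.6 CPM with dTAG-13, so both treated cultures exceeded both controls. The fold change was 1.00 (SE 0.152, 95% interval 0.65 to 1.36), and the pairs differed by 0.83 and 1.17. These are uninduced levels. After 1 day of doxycycline the same line held 2735 to 3836 CPM. In the uninduced mutant clones Xist measured 71.8 and 67.3 CPM without dTAG-13 and 74.3 and 83.5 CPM with it, a fold change of 0.19 (SE 0.132). The difference in effect was -0.82 and did not pass the threshold (edgeR unadjusted p = 0.0035, adjusted p = 0.88). Cd38, an enzyme that consumes NAD, measured 12.2 and 12.1 CPM in the controls and 19.73 and 17.97 CPM in the treated cultures, which put the groups far apart compared with the spread inside them (fold change 0.64, SE 0.131). Otx2os1, transcribed opposite the forebrain and epiblast factor Otx2, measured 26.8 and 38.7 CPM against 39.7 and 66.8 CPM. Adtrp, Smyd1 (a muscle histone methyltransferase) and Oc90 (a protein of the inner ear) had fold changes between 1.01 and 1.39 at levels of at most 5.99 CPM.

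The remaining 4 genes in that direction were of the extracellular matrix. Col3a1, the chain of type III collagen, had 1 and 2 fragments in the controls and 253 and 36 in the treated cultures, or 0.062 and 0.108 CPM against 14.2 and 1.62 CPM. Tnc, which encodes the glycoprotein tenascin C, measured 0.558 and 0.541 CPM in the controls and 3.99 and 10.2 CPM with dTAG-13. Col1a1 measured 1.05 and 0.271 CPM against 6.46 and 0.946 CPM, so its groups overlapped, and Col6a3 measured 0.992 and 0.812 CPM against 6.46 and 2.12 CPM. These are genes that fibroblasts express strongly, and 5 of 17 tested feeder fibroblast markers were higher at an unadjusted p under 0.05 (Col1a1, Col1a2, Col3a1, Col5a1 and Timp3), none lower, where 3.14% of all genes were higher at that level.

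Over the whole feeder list, 11 of the 17 had a fitted value above 0, 8 were above 0 in both pairs and 2 below 0 in both. Of all tested genes, 49.6% had a fitted value above 0, 26.8% were above 0 in both pairs and 27.3% below 0 in both. The median of the feeder list was 0.26, against -0.0027 for all genes, and its medians by pair were 0.28 and 0.29. The summed level of all 24 was 721 and 706 CPM in the controls and 697 and 509 CPM in the treated cultures, most of it from Fn1, which mESCs also express and which measured 611 and 607 CPM in the controls and 554 and 388 CPM with dTAG-13. Lum was at most 0.062 CPM, Dcn reached 0.315 CPM and Postn 0.618 CPM, each in a treated library. Allelic fragments gave Cast and Dom counts of 30 and 18 for Col3a1 in replicate 1 with dTAG-13 and of 0 and 13 in replicate 2, and for Tnc of 7 and 32 and of 1 and 100. The part of feeder cells in these values was not tested. In bulk samples more cells of a type and more RNA per cell cannot be told apart. In the clones with a mutant SPOC domain described below, Tnc measured 14.8 and 0.174 CPM without dTAG-13 and 14.4 and 0.475 CPM with it, so it differed between clones and hardly with treatment (fold change 0.08).

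Among the 10 genes that were lower, Igf2bp2, an RNA-binding protein of mESCs, had the highest level. It measured 128.4 and 185.7 CPM in the controls and 89.5 and 130.3 CPM with dTAG-13, where the groups overlapped but the pairs differed alike (-0.52 and -0.51). The uncharacterised transcript 9530026P05Rik measured 29.7 and 67.6 CPM against 19.6 and 40.8 CPM. Fam210b, which encodes a mitochondrial protein, measured 3.97 and 4.71 CPM in the controls and 1.91 and 2.03 CPM in the treated cultures, a fold change of -1.13 (SE 0.212) without overlap. Slitrk4, a neuronal membrane protein on the X chromosome, measured 4.71 and 5.31 CPM against 2.19 and 2.84 CPM. Got1l1, Tmem211, Unc13a, Ndufa4l2 and Art5 had fold changes between -0.82 and -1.85; apart from Got1l1 and Unc13a these stayed under 4 CPM in all 4 libraries.

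**Figure D3:**
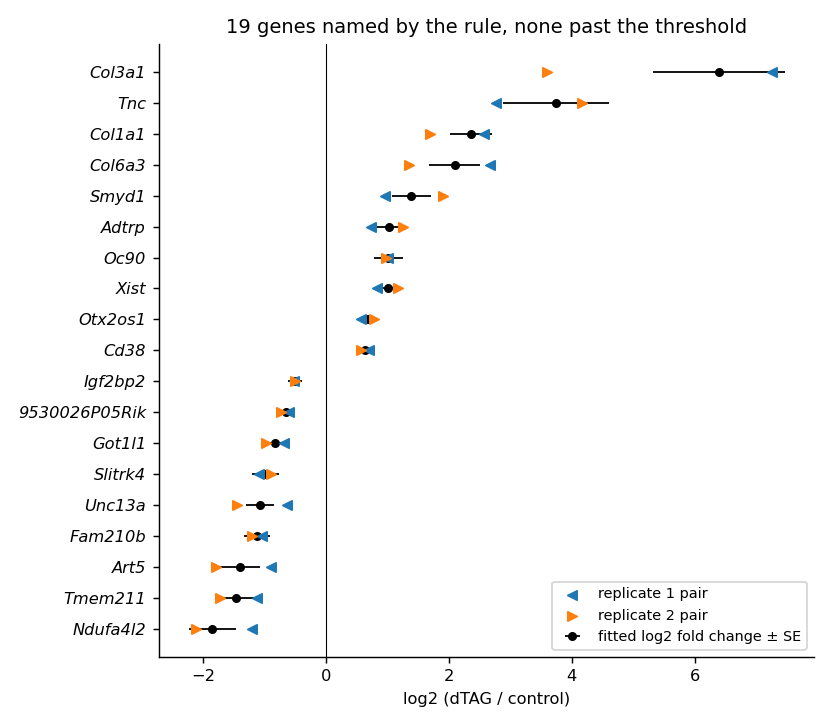
Of the genes chosen by the rule on both pairs, 19 are shown, none of them past the adjusted threshold; the x axis is the log2 ratio of dTAG over control, black points with bars give the fitted value and its SE, and triangles the 2 replicate pairs. Col3a1 and Tnc have the widest bars, and Cd38, Otx2os1 and Igf2bp2 have pairs that lie close together.

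Xist was then followed by allele. The Dom copy carries the inducible promoter and the Cast copy is the natural one. Xist fragments assigned to Dom numbered 427 and 347 in the controls and 522 and 922 with dTAG-13, or 26.5 and 18.8 CPM against 29.3 and 41.5 CPM. Fragments assigned to Cast numbered 23 and 0 in the controls and 314 and 2 in the treated cultures. The Dom share was therefore 94.9% and 100% in the controls and 62.4% and 99.8% with dTAG-13. In replicate 1 most of the added allelic fragments were Cast and in replicate 2 nearly all were Dom. The test of the allele share called Xist (log2 of Dom over Cast -3.47, SE 0.369, edgeR adjusted p = 2.6e-08), but the groups overlapped, and the adjusted p was 0.95 without the control and 0.40 without the treated library of replicate 1, against 0.00048 and 1.3e-39 without those of replicate 2. At day 1 the treated library of replicate 1 again held Cast Xist, 3925 fragments, where the other 3 day 1 libraries held 9 to 24.

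**Figure D4:**
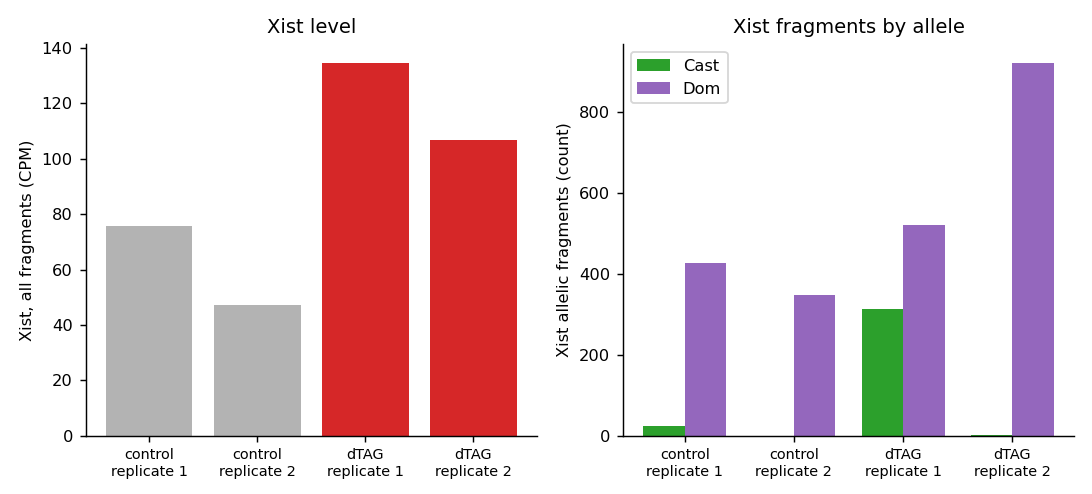
Xist in the 4 day 0 libraries; the left panel gives its level in CPM and the right panel its allelic fragments as counts, Cast in green and Dom in purple. Both treated libraries exceed both controls in level, and Cast fragments number 314 in dTAG replicate 1 against 23, 0 and 2 in the other 3.

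Neighbours of Xist in the X inactivation centre also included genes with an unadjusted p under 0.05. Jpx, a noncoding activator of Xist, measured 4.40 and 3.90 CPM in the controls and 6.63 and 9.64 CPM with dTAG-13 (fold change 1.00, SE 0.307). Ftx, a second noncoding activator, had a fold change of 0.29. Rlim, whose protein removes a repressor of Xist, measured 619 and 969 CPM in the controls and 577 and 544 CPM in the treated cultures, lower in both (-0.44). Tsix, the antisense transcript that opposes Xist, measured 431 and 362 CPM against 435 and 568 CPM, higher in both treated libraries by an amount that did not pass any threshold (0.37, SE 0.22). Spen, which lies on chromosome 4 and encodes the silencing factor recruited by Xist, measured 136.9 and 71.4 CPM against 119.3 and 96.5 CPM. Its treated values lay between the controls. Counting was stranded, so Xist and Tsix were kept apart.

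Across all genes, the allele share was called for 17 of 12327 genes with enough allelic fragments (0.138%), 14 with a higher Dom share and 3 with a lower one; 802 genes (6.51%) had an unadjusted p under 0.05. Xist had the smallest adjusted p, followed by Snhg3 and Iars. In Snhg3, a host of small nucleolar RNAs, the Dom share fell from 59.4% and 56.9% in the controls to 52.9% and 49.8% (adjusted p = 3e-05). In Iars, a tRNA synthetase gene, it rose from 33.5% and 38.6% to 41.1% and 50.1% (adjusted p = 0.0004). The groups overlapped in neither of these genes. How many of all genes tested for allele share had groups without overlap was not counted. Without the replicate block no gene was called, and the count ran from 2 to 186 as single day 0 libraries were left out, the 186 arising without the treated library of replicate 1.

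Of the 17 genes, 7 were on the X chromosome: Xist and 6 that lie between it and the far end (Nhs, Pgk1, Mospd2, Sh3kbp1, Col4a5 and Pbdc1). Beyond Xist the controls gave almost no Dom RNA. Over 124 genes of that stretch, the Dom share was 0.202% (95% exact binomial interval 0.176 to 0.231%) and 0.200% (0.176 to 0.226%) in the controls and 0.281% (0.252 to 0.312%) and 0.655% (0.616 to 0.697%) in the treated cultures. It was thus highest in the treated library of replicate 2. The genes of the stretch had been selected on uninduced libraries of other clones, which carry a SPOC mutation but not the tags. Those libraries gave none of these shares, and the genes had a Dom share under 1% over them. Day 1 treated cultures gave 1.19% and 0.195%. The tagged mutant clones described below gave 0.604% without and 0.580% with dTAG-13 in one and 0.149% and 0.144% in the other. The share thus differed between clones and hardly with treatment. By the study's own account the parent line carries a recombination, and its X chromosome is not informative for the allele over its whole length. What gave these fragments was not tested. Pgk1, a glycolytic enzyme gene, shows the scale of it: 1 and 0 Dom fragments in the controls and 6 and 18 with dTAG-13, beside 1438 to 2819 Cast fragments.

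The deposited table of allelic ratios for the X chromosome covered 246 genes between the centromere and Xist. The median ratio was 0.509 and 0.511 in the controls and 0.512 and 0.512 in the treated cultures, a difference of 0.00199 (exact two-sided permutation test, p = 0.33, the smallest that 2 libraries against 2 can give). A ratio of 0.5 stands for equal numbers of fragments from both alleles.

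The same treatment without doxycycline was also given to 2 clones that carry, beside the tags, a mutation of the SPOC domain of SPEN, which serves as a comparison with libraries and controls of its own. In a joint fit of the 8 uninduced libraries no gene was called in the mutant clones (0 of 15482, 0%), 188 genes (1.21%) had an unadjusted p under 0.05, and DESeq2 called 0. No gene was called for a difference in effect between the line with intact SPEN and the clones (0 of 15482, 0%), with 607 genes at an unadjusted p under 0.05 and 1 called by DESeq2. Leaving out the control or the treated library of replicate 1 gave 4551 and 4554 genes for that difference, and leaving out those of replicate 2 gave 169 and 140, in each case with the spread set by the clones. In those fits 213 to 215 genes were called in the clones. Over the 15266 genes present in both fits, 56.9% had the same sign in the line and in the clones. Of the 1109 genes with an unadjusted p under 0.05 in the line with intact SPEN, 72.6% had the same sign in the clones.

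There were 33 genes with an unadjusted p under 0.05 and the same sign in both backgrounds, 12 higher and 21 lower, and 2 with opposite signs (Tceal5 and Psme1). The 33 made up 2.98% of the genes at that level in the line with intact SPEN and 17.9% of the 184 in the clones. Of all genes in both fits, 1.21% were at that level in the clones, in either direction. In the line with intact SPEN, 3.14% of all tested genes were higher and 4.12% lower at that level. Bahcc1, a reader of methylated H3K27, had the smallest p-values when each gene was ranked by the larger of its 2. It measured 6.51 and 9.10 CPM in the controls and 3.88 and 3.87 CPM with dTAG-13 in the line with intact SPEN, and 18.8 and 8.76 CPM against 10.4 and 5.47 CPM in the clones. Its fold changes were -0.98 (SE 0.238) and -0.77 (SE 0.167). Ptgs1, which encodes cyclooxygenase 1, was first among those that were higher: 17.4 and 7.09 CPM against 27.8 and 20.4 CPM, and 4.31 and 3.60 CPM against 10.0 and 6.54 CPM in the clones. Its fold changes were 1.17 (SE 0.348) and 1.05 (SE 0.267), and in neither background did the groups overlap.

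The start regions of these 2 genes are shown because they ranked first in their direction by the larger of the 2 p-values. Having the same sign in both backgrounds was part of that selection, so it is no separate test. The p-values of the clones came from the joint fit, whose spread included the libraries of the line. The sequences are from RefSeq (GRCm38.p6), 250 bases before to 50 after the annotated start, both on the plus strand, with each CG in capitals. Bahcc1 lies at chr11:120232697-120232996 and holds 23 CG, a number reached by 21.6% of 27025 mouse promoters of the same length. Ptgs1 lies at chr2:36230176-36230475 and holds 6 CG, a number reached by 56.4% of those promoters; 94.2% hold at least 1, and the median is 7.
Bahcc1: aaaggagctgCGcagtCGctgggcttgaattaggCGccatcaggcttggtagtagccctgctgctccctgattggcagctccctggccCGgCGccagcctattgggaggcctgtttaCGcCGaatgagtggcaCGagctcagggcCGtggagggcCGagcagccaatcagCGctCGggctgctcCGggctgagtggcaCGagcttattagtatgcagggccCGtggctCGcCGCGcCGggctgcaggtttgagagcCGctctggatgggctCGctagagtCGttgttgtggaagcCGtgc
Ptgs1: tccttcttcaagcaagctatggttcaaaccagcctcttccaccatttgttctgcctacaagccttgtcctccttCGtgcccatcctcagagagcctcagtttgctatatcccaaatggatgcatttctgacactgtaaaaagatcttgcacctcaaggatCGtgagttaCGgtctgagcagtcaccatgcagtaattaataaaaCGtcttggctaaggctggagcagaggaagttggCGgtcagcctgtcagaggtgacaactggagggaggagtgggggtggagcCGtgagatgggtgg

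Other genes of the 33 are given as examples, with the fold change in the line and then in the clones. Among those higher in both backgrounds were Ror1, a receptor for Wnt ligands (0.61 and 0.50), Porcn, the enzyme that lipidates Wnt ligands (0.63 and 0.54), and Gpc4, a cell surface proteoglycan (0.71 and 0.42). The 2 pairs of the line differed by 0.29 and 0.89 in Ror1, by 0.43 and 0.76 in Porcn and by 0.38 and 1.01 in Gpc4, each larger in replicate 2. Rfx4, a transcription factor of the neural tube, measured 4.90 and 3.90 CPM in the controls and 7.76 and 6.67 CPM with dTAG-13, and 3.41 and 2.38 CPM against 4.82 and 4.52 CPM in the clones. Sms, the spermine synthase gene on the X chromosome, measured 211 and 165 CPM against 255 and 255 CPM. Among those lower in both were the chromatin organiser Satb1 (-0.59 and -0.31), the receptor genes Epha7 (-0.52 and -0.33) and Ptprd (-0.46 and -0.37), and B2m, the light chain of class I histocompatibility molecules (-0.49 and -0.47). Their pairs differed by -0.40 and -0.79 in Satb1, -0.29 and -0.77 in Epha7, -0.26 and -0.68 in Ptprd and -0.45 and -0.55 in B2m. These genes were picked from p-values that had not been adjusted and are given as a description.

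Fitted alone, with the clone as a block, the mutant clones gave 78 called higher genes (0.516% of 15126) and 156 lower genes (1.03%). This fit was added after the data had been seen, and the 4 libraries leave 1 residual degree of freedom. All of these 234 genes could be looked up in the line with intact SPEN. Of the 78, 57 (73.1%) had a value above 0 there, where 49.6% of all tested genes did, and 23 (29.5%) had an unadjusted p under 0.05 in that direction, against 3.14% of all genes, with 2 in the opposite one. Of the 156, 113 (72.4%) were below 0, where 50.4% of all genes were, and 35 (22.4%) had an unadjusted p under 0.05 in that direction, against 4.12% of all genes, with 0 in the opposite one. The medians were 0.32 and -0.19. For the 78 higher genes the medians by pair were 0.11 and 0.47, and for the 156 lower genes they were -0.21 and -0.24.

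**Figure D5:**
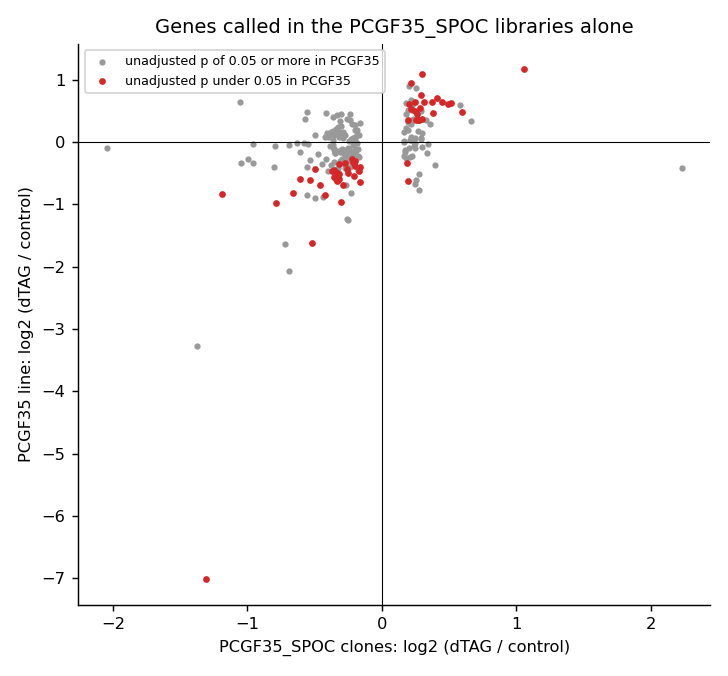
The 234 genes called in the 4 PCGF35_SPOC libraries alone; the x axis is their log2 ratio of dTAG over control in the clones and the y axis the fitted value in the line with intact SPEN, with red points for an unadjusted p under 0.05 in that line. Of the genes, 57 of 78 on the right lie above 0 and 113 of 156 on the left lie below; the lowest point is D130009I18Rik.

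Day 1 libraries of the line with intact SPEN, in which doxycycline had been present, were a further set of cultures. No gene was called for a difference in the dTAG-13 effect between day 1 and day 0 (0 of 15366, 0%), 331 genes had an unadjusted p under 0.05, and DESeq2 called 0. Without the treated day 0 library of replicate 1 the count was 1279, and without that of replicate 2 it was 1. Xist differed by 0.16 at day 1 and Cd38 by 0.09, against 1.00 and 0.64 at day 0. Rfx4 differed by 0.74 at day 1 against 0.73 at day 0, and Bahcc1 by -0.71 against -0.98. Col3a1 measured 0.520 and 0 CPM in the day 1 controls and 6.34 and 0 CPM with dTAG-13, so it was high again in replicate 1 alone.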

How the data were processed

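As the labels and methods state, ribosomal reads were removed by the authors (Bowtie2 2.3.2), who aligned with STAR 2.4.2a to mm10 with strain differences masked, split fragments by allele with SNPsplit, and counted fragments over whole transcripts, introns included, by strand with featureCounts. The deposited files hold raw counts per gene (all, Cast and Dom) and 1 table of allelic fractions for X-linked genes. Each column of the latter was matched to a sample by the library name that heads that sample's own counts. No column belonged to a sample outside the series.

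From these, edgeR 4.0.16 in R 4.3.3 was run with filterByExpr, TMM scaling, replicate number as a block and Benjamini-Hochberg adjustment; DESeq2 1.42.0, other scalings, filters, blocks and library sets were alternatives. The block rests on the design, treated and untreated cells having been cultured in parallel. Differences between replicates 2 and 1 correlated across 15366 genes between all groups of the line on ES (r from 0.210 to 0.711). In the clones, where the number is the clone, r was 0.858. Between the line and the clones, whose numbers are unrelated, r ran from 0.145 to 0.388. These correlations thus cannot show that a shared number stands for a shared culture. Log2 differences of single pairs added 0.5 to each count. Allele tests took genes with at least 10 allelic fragments in each of 8 libraries. Scripts were tested on simulated data. Replicates differed by more than sampling noise (chi-square per degree of freedom 29.4 to 63.3), so none was counted as a repeat. Intervals of shares and limits of 3 counts cover counting error only.

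Named genes were the targets, Xist and Spen; genes past the threshold; up to 10 per direction by the rule on pairs; the 2 largest values per list; and up to 3 per allele comparison. Other genes were named for their role or unadjusted p after their values were seen. Some genes of the lists are not reported here. Members and lists were chosen with earlier results of these data known. A comparison of promoter classes was void, since only 79.3% of tested genes matched a RefSeq promoter.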

Additional observations from a re-analysis of the deposited data

How the results depend on the processing

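No gene was called in the day 0 comparison without the replicate block on the same libraries, with the paired block within each day, with DESeq2 size factors, without the filter on low counts, with all 58 libraries or with 1 effect over the 4 pairs of both backgrounds. DESeq2's own test called 2 genes, the 4 day 0 libraries alone with the replicate block 3 (Col3a1, Tnc and 5730408K05Rik; 0 without the block), and the 8 uninduced libraries 1 (5730408K05Rik, lower); the 8 uninduced libraries, the 4-pair effect and the clones alone were chosen after seeing the data. Leaving out single libraries gave 0 to 4100 called genes at day 0, 0 to 1279 for the difference between days, 0 to 4554 for the difference between backgrounds and 0 to 215 in the mutant clones; where a library of the line with intact SPEN was dropped from the joint fit, the clones alone set the spread. DESeq2 called 1 gene for the difference between backgrounds, and the clones alone, with a replicate block, gave 234. The allele share was called for 17 genes, for 16 with at least 30 allelic fragments, for 0 without the replicate block and for 2 to 186 as single libraries were left out. The median X-linked difference ranged from 0.00103 to 0.00295.

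Of 63 named genes under 10 settings, 1 value changed sign, Spen with 1 effect over the 4 pairs (-0.019). Of 252 values without 1 library, 10 changed sign, in 9 genes. Their ranges were -0.19 to 0.17 for Pcgf5, -0.21 to 0.47 for Spen, -0.0205 to 1.49 for Zscan4b, -0.0703 to 1.20 for Wnt3, -1.04 to 0.0883 for Ring1, -0.14 to 0.49 for Auts2, -0.60 to 0.24 for Usp21, -0.27 to 1.32 for Pdgfra and -1.42 to 0.0182 for Utf1. Without the treated library of replicate 1, 57 of the named genes passed the threshold; the cause was not tested. With 2 cultures a group, the median SE over all tested genes was 0.174, and 76.3% of intervals lay within 2-fold of no change.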

Other observations

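Filip1l, an actin-associated gene, and the noncoding D130009I18Rik differed widely between libraries of 1 group. Filip1l measured 14.1 and 646 CPM in the day 0 controls and 7.14 and 3.56 CPM with dTAG-13. At day 1 it measured 9.60 and 245 CPM in the controls and 15.0 and 4368 CPM in the treated cultures, and in the mutant clones at day 0 10252 and 635 CPM without dTAG-13 and 3836 and 251 CPM with it, in clone order. D130009I18Rik followed a similar order, with 2.67 and 308 CPM in the day 0 controls, 1.46 and 0.270 CPM with dTAG-13, and 3216 CPM at its highest in the clones. Both genes were lower in both treated day 0 libraries than in both controls, where 12.1% of all genes were lower without overlap. They were also called lower in the clones alone (log2 -1.38 for Filip1l and -1.31 for D130009I18Rik). At day 1 the fitted values in the line were above 0 (3.25 and 3.24). Filip1l was also among the genes called for allele share. Cd44, a cell surface receptor, had a Dom share of 61.3% and 44.7% in the controls and 62.3% and 84.3% with dTAG-13.

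Whole chromosomes departed from an even split of the alleles in all 4 libraries alike. The Dom share of all autosomes was 51.5 to 51.9%, while chromosome 8 gave 34.8 to 35.5%, chromosome 12 gave 33.6 to 33.9% and chromosome 11 gave 68.8 to 69.1%.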
